A study of Vitis vinifera with 24 samples.

Results

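Late ripening of berries from pre-bloom defoliated (PB) Sangiovese vines was followed by comparing berries at harvest (H) with berries at the end of veraison (EV). The comparison took in every array whose title names pre-bloom defoliation at either stage, which was 6 of the 24 arrays of the series, 3 at H and 3 at EV. All vines were adult field-grown *Vitis vinifera* cv Sangiovese of clone 12T on the rootstock SO4. PB vines had lost the main and lateral leaves of the 6 basal nodes of each shoot by hand at Julian day (JD) 147, before bloom, and like all vines of the study they were hedged later in the season. The study also sampled vines that lost the same leaves at veraison, JD 211 (V berries, at EV and H), and vines with no leaf removal (C berries), and PB and C berries were taken at the beginning of veraison (BV) too. Each array held RNA from a pool of berries collected from 3 vines of a block, from a single clone in a single vineyard, so the spread between arrays is that between blocks. In GEO, the 6 arrays of C berries at EV and H carry protocol text on cluster thinning and its own controls, and a difference between PB and C berries at those stages cannot be told apart from a difference between the experiments.

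Veraison is the onset of ripening in the grape berry, when the flesh softens and, in red cultivars, the skin begins to colour. In the weeks between the end of veraison and harvest, berries go on storing hexoses and anthocyanins, malic acid is respired, cell walls are loosened and aroma compounds appear, while photosynthetic functions decline. Leaf removal at the base of the shoot before bloom lowers the supply of assimilates to the flowers and is used to limit fruit set and open the cluster to light and air. The array measures these programmes through several short probes per gene. The deposited table and the annotation used here do not pair probe identifiers with genes, so the results are given per probe, the pericarp label could not be checked against marker genes, and no pathway is named. The probe sequences were not used here. In pooled tissue, a smaller number of cells of one type and less transcript per cell cannot be told apart.

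The values were fluorescence intensities on the log2 scale for 117999 grapevine probes. A further 19091 probes of random sequence match no grapevine gene and show the signal without a target. Their mean log2 intensity, called here the random-probe level, was 6.38, 6.56 and 6.03 at H and 5.94, 6.00 and 5.90 at EV in PB berries. All 3 H arrays therefore lay above all 3 EV arrays, and H replicate 3 lay closest to them. The level averaged 6.33 ± 0.27 at H and 5.94 ± 0.05 at EV (SD, n = 3 each), a difference of 0.38, with p = 0.1 in a two-sided exact permutation test, the smallest p that 3 arrays against 3 can give. The mean over grapevine probes was 8.64 ± 0.04 at H and 8.70 ± 0.01 at EV (SD, n = 3 each), a difference of -0.06. Since both kinds of probe were normalized together, this is the counterpart of the shift in the random-sequence probes and not a second result. V berries had levels of 6.03, 5.91 and 5.98 at H and 5.95, 5.94 and 5.95 at EV, and C berries 5.89, 6.29 and 6.26 at H and 7.15, 6.31 and 6.73 at EV.

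**Figure D1:**
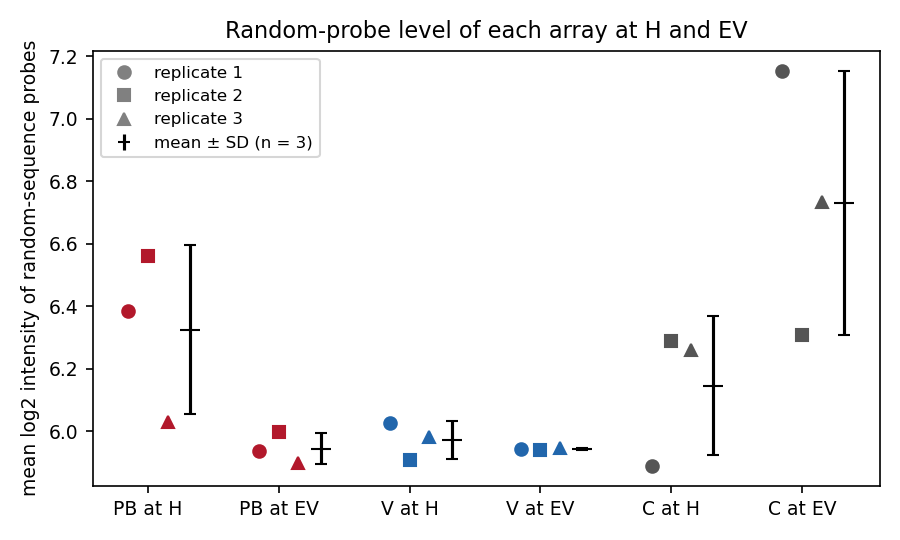
Random-probe level (mean log2 intensity of 19091 random-sequence probes, vertical axis) of each array at H and EV in PB, V and C berries. Points are arrays, with a symbol for each replicate number, and crosses with bars give the mean ± SD (n = 3); the 3 PB arrays at H lie between 6.03 and 6.56, above the 3 PB arrays at EV, which lie between 5.90 and 6.00.

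The H arrays of PB berries also differed more from each other. Pairs of replicates correlated across grapevine probes at r = 0.822 to 0.906 at H and 0.964 to 0.977 at EV, and the root mean square of the SD between replicates was 0.92 at H and 0.45 at EV on the log2 scale. The distance from the EV mean followed the order of the random-probe level. It was 1.41 for H replicate 1, 1.75 for H replicate 2 and 0.99 for H replicate 3, as the root mean square difference over probes. The correlation of each H array with the EV arrays was 0.829 to 0.850 for replicate 1, 0.744 to 0.771 for replicate 2 and 0.906 to 0.923 for replicate 3. The part of the random-probe level in the results that follow was not tested, and values with and without the arrays concerned are given beside them.

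To find the probes that changed during late ripening, the 6 arrays were fitted probe by probe with limma. Calls required a p below 0.02 after Benjamini-Hochberg adjustment and a change of 2-fold or more. Of the 117999 grapevine probes, 2515 were called (2.13%), with 1122 higher at H (0.951%) and 1393 lower at H (1.18%). The called probes differed by large amounts. Those that were higher had a median difference of 2.87 on the log2 scale (7.34-fold, range 1.74 to 6.21), and those that were lower had a median difference of -3.03 (8.16-fold, range -7.08 to -1.70). The median over all grapevine probes was 0.04. The lowest adjusted p was 0.00554, and 35069 probes (29.7%) had an unadjusted p below 0.05. At an adjusted p below 0.05, 9956 probes were called (8.44%).

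The number of called probes changed when single arrays were left out and when the random-probe level or the replicate number entered the fit. With that level as a covariate, which also takes up a residual degree of freedom, limma called 0 probes, with 17149 at an unadjusted p below 0.05, and the permutation method SAM called 18317 without that covariate. The fit above did not pair H and EV arrays. With the replicate number as a block, limma called 0 probes, with a lowest adjusted p of 0.0348 and 30639 at an unadjusted p below 0.05. The labels do not say whether a replicate number marks a block. Limma called 0 probes when H replicate 1 or any EV array was left out, with 22511 to 27823 probes at an unadjusted p below 0.05. It called 2205 without H replicate 2, of which 1674 were among the original 2515, and 16285 without H replicate 3, which included all 2515. The 2515 probes kept their direction in these fits, but they were chosen on the same arrays, which favours this and a small p. Their H and EV arrays did not overlap, so leaving out 1 array could not turn a sign. With the covariate all 2515 kept their sign and an unadjusted p below 0.05, and the median difference was 2.44 for the higher and -2.71 for the lower ones. Without H replicate 3, the medians were 3.04 and -3.18.

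The call asks for a small spread between replicates, so the 2515 probes had to read alike in the 3 H arrays, and their values per array are a description. Measured against the EV mean, the probes that were higher at H had a median difference of 2.99 in H replicate 1, 3.11 in H replicate 2 and 2.50 in H replicate 3. The probes that were lower had medians of -3.18, -3.10 and -2.72 in the same order of arrays. H replicate 3, which had the lowest random-probe level at H, thus had the smallest shift in both directions.

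More probes differed by 2-fold than passed the test. A difference of at least 2-fold was measured for 39434 grapevine probes (33.4%), 18180 higher and 21254 lower at H. Among the 19091 random-sequence probes it was measured for 3557 (18.6%), 3191 higher and 366 lower at H. Increases of this size were thus no rarer among random-sequence probes than among grapevine probes. All 3 H arrays lay on one side of all 3 EV arrays for 43712 probes (37%), 22014 of them higher (18.7%) and 21698 lower at H (18.4%). Among random-sequence probes the groups did not overlap for 16.6%, and these were mostly higher at H (13.3% of the random-sequence probes) rather than lower (3.34%). The root mean square difference over grapevine probes was 1.20, whereas the spread between replicates alone gives 0.59. Without each array in turn it lay between 1.08 and 1.46.

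The random-sequence probes were fitted in the same way as a background. Limma called 0 of the 19091, the lowest adjusted p was 0.317, and 2061 had an unadjusted p below 0.05 (10.8%), of which 1791 were higher at H (9.38%). Their median difference was 0.34, and they ranged from -2.73 to 3.94. The random-sequence distribution was therefore shifted to higher values at H. These probes sit around background at both stages, which limits how far they can fall, and 366 of them were at least 2-fold lower at H. Brighter grapevine probes can fall further, so the random-sequence probes give only a limited background for decreases.

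**Figure D2:**
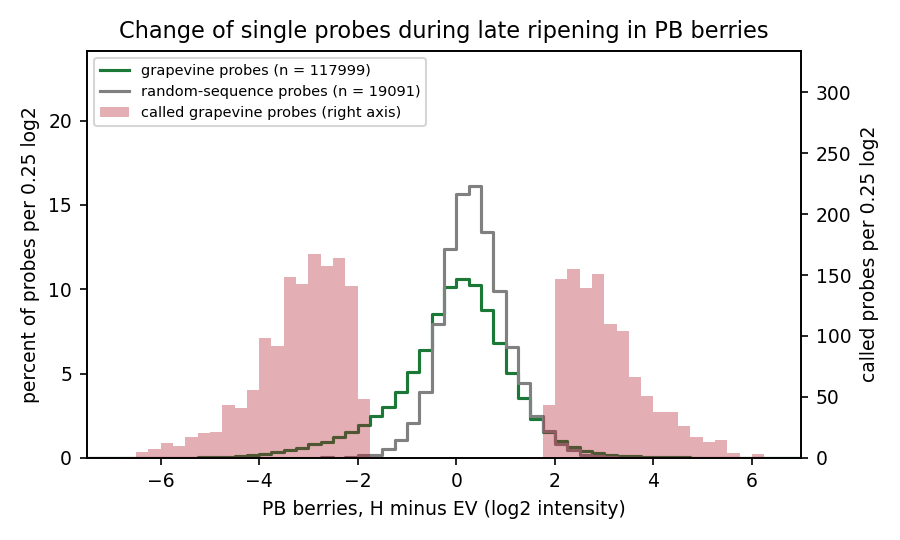
Distribution of H minus EV differences in PB berries (log2 intensity, horizontal axis) as percent of probes per bin for grapevine and random-sequence probes (lines, left axis), with the number of called grapevine probes per bin (bars, right axis). The random-sequence probes centre at 0.34, the grapevine probes at 0.04, and the called probes begin at 1.74 above and -1.70 below 0.

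Lower probes often reached background at H. A probe was taken as above background at a stage when its intensity exceeded the array's mean random-sequence intensity in at least 2 of 3 replicates. That mean was 139, 171 and 86.4 at H and 74.7, 80.3 and 72.5 at EV on the linear scale, so the bar was higher at H. Over all grapevine probes, 72805 (61.7%) were above background at both stages, 3446 (2.92%) at H only, 18528 (15.7%) at EV only and 23220 (19.7%) at neither. Among the 1393 called lower probes, 884 (63.5%) were above background at EV only and 509 (36.5%) at both stages. Among the 1122 called higher probes, 179 (16%) were above background at H only and 943 (84%) at both. The called probes were chosen on these same arrays for a large change, which favours a reading above background at 1 stage only. A probe at background at one stage has only a bound there rather than its measured difference. The bounds given below are differences from the random-probe level, a mean of log2 values that lies below the bar used for these counts. They are not bounds against that bar. These counts moved by over 1.5 times with single arrays left out, when both of the remaining 2 replicates of that stage had to exceed the bar. H only was 1562 without H replicate 3, 1828 without H replicate 1, 1830 without H replicate 2, and 5841, 5234 and 5455 without EV replicates 1, 2 and 3. EV only was 31802 without H replicate 3 and 29269 without H replicate 1.

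The 4 named probes are described in full, namely the pair with the largest increase and the pair with the largest decrease among called probes whose arrays did not overlap, which was the case for all 2515. VitusP00171937 had log2 intensities of 12.88, 12.84 and 11.36 at H, against 6.40, 5.92 and 6.14 at EV. The H arrays all lay far above the EV arrays, and 1 of the EV values was below its array's random-probe level. The measured difference was 6.21 ± 0.47 (SE), 74.0-fold, with an adjusted p of 0.00554 in the limma fit, and it was 6.18 with values below the random-probe level raised to it. At BV the probe had read 5.89, 5.14 and 5.02.

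VitusP00100823 read 12.45, 11.66 and 13.07 at H, against 6.66, 5.62 and 6.70 at EV. Its groups did not overlap either, with H replicate 3 the highest of the 3 H arrays here and the lowest there. The measured difference was 6.06 ± 0.49 (SE), 66.9-fold, with an adjusted p of 0.00554, and it was 5.94 with values below the random-probe level raised to it. The BV arrays read 7.36, 6.40 and 6.59.

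VitusP00041070 read 5.58, 4.70 and 6.78 at H, against 12.18, 12.42 and 13.71 at EV. Only H replicate 3 lay above the random-probe level of its array. The difference was -7.08 ± 0.63 (SE), 136-fold, with an adjusted p of 0.00573, and it was -6.20 when H values below the random-probe level were raised to it. VitusP00262347 read 5.60, 6.32 and 5.62 at H, all below the random-probe level, against 12.40, 11.96 and 13.04 at EV. Its measured difference was -6.62 ± 0.40 (SE) with an adjusted p of 0.00554, and the bound against the random-probe level was -6.14. At BV both falling probes were bright, with 12.14, 12.44 and 13.16 for VitusP00041070 and 12.53, 11.81 and 12.01 for VitusP00262347.

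**Figure D3:**
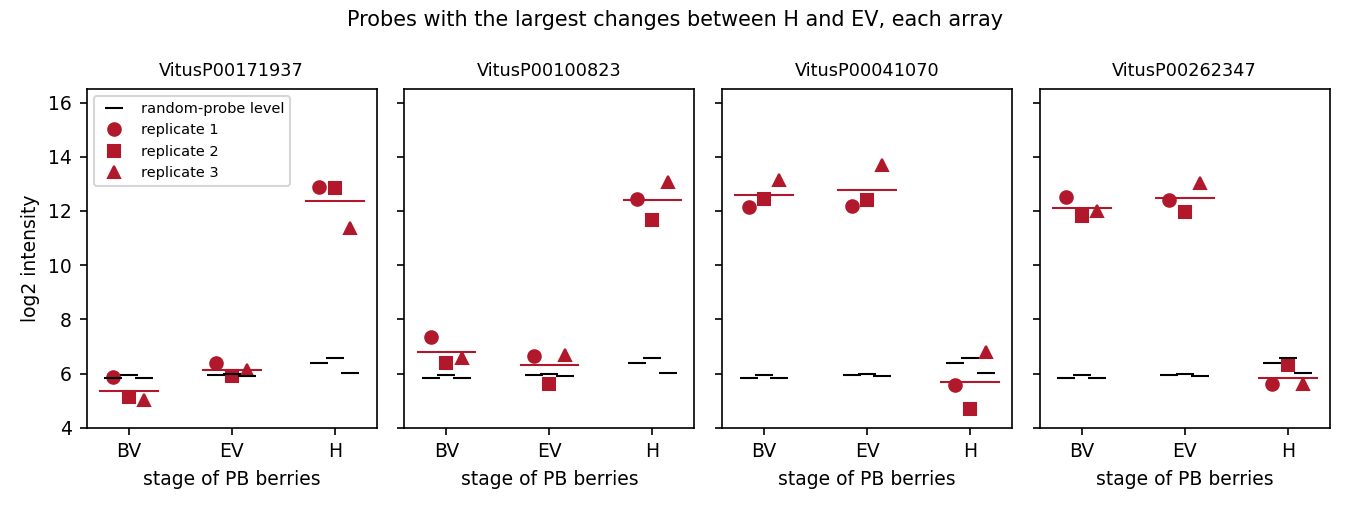
Log2 intensity (vertical axis) of the 4 named probes in PB berries at BV, EV and H. Symbols are arrays, red lines group means and black dashes the random-probe level of each array. The rising probes read 11.36 or more at H, and the 3 values of VitusP00262347 at H lie under the dashes.

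The called probes lay within 2-fold between BV and EV somewhat less often than all grapevine probes did. Between BV and EV, limma called 0 probes in PB berries, with 18091 at an unadjusted p below 0.05 (15.3%). The 1122 probes called higher at H had a median level of 7.69 at BV, 7.82 at EV and 11.02 at H. The 1393 probes called lower had medians of 10.33 at BV, 9.97 at EV and 6.39 at H. The EV arrays entered both the choice of these probes and this comparison, so the BV levels are given as a description. BV lay within 2-fold of EV for 974 (86.8%) of the higher and 1170 (84.0%) of the lower probes, against 93.7% of all grapevine probes. From BV to EV, 94 higher (8.38%) and 154 lower probes (11.1%) moved 2-fold or more in their later direction, against 3.19% of all. In the opposite direction it was 54 (4.81%) and 69 (4.95%), against 3.15% of all. The BV mean lay on the same side of EV as the H mean for 490 higher (43.7%) and 598 lower probes (42.9%), against 53.0% of all grapevine probes.

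Probes were also grouped by their level at BV, which the fit did not use. Grapevine probes were cut into 4 equal bins by their BV mean. From the dimmest to the brightest bin, the median H minus EV difference was 0.31, 0.05, -0.11 and -0.23. The dimmest bin held 222 called higher and 5 called lower probes, the second 541 and 239, the third 301 and 543, and the brightest 58 and 606. The dimmest bin ran from 4.67 to 6.43 at BV, around the random-probe level. A fall of 2-fold or more was rare there (1.87% of its probes, against 17.2% with a rise of 2-fold or more). The random-sequence probes, which sit around background, had a median difference of 0.34. The part of the floor at background, and of the shift of the random-sequence probes, in the split of calls and in the trend across bins was not tested. In V berries the same bins had medians of 0.13, 0.10, 0.03 and -0.09.

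Probes with adjacent identifiers were often called together. The next grapevine row was called in the same direction for 371 of the 1122 higher probes (33.1%), against 0.951% of all grapevine probes called higher. For the lower probes it was 341 of the 1392 that had a next row (24.5%), against 1.18% of all called lower. The next row was called in the opposite direction for 0 higher and 2 lower probes. Across all grapevine probes the H minus EV difference correlated at r = 0.45 with that of the next row, 0.30 at 2 rows apart, 0.17 at 3 and 0.08 at 4, over at least 117995 pairs of rows. These pairs share arrays and can share a gene or sequence, so the correlation is a description. The longest run of successive rows called in 1 direction was 8 for higher and 6 for lower probes.

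To see how far this change was shared by berries defoliated at veraison, the called probes were read in the V arrays, which had no part in their choice. The 1122 higher probes had a median H minus EV difference of 1.86 in V berries, and 1116 of them (99.5%) had the same sign, against 52.6% of all grapevine probes. The 1393 lower probes had a median of -2.11 in V berries, and 1359 (97.6%) had the same sign, against 47.4% of all. With PB probes called without H replicate 3 of the PB berries, the share with the same sign in V berries was 84.7%. The median over all grapevine probes in V berries was 0.04. An unadjusted p below 0.05 in the same direction was found in V berries for 1035 higher (92.2%, against 13.3% of all probes) and 1166 lower probes (83.7%, against 13.5%). At the thresholds used for PB berries, limma called 0 probes in V berries, where the lowest adjusted p was 0.0213 and 31694 probes had an unadjusted p below 0.05 (26.9%). Across the 117999 grapevine probes the PB and V differences correlated at r = 0.62, and across random-sequence probes at r = 0.33; each point is a probe on the same array design.

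**Figure D4:**
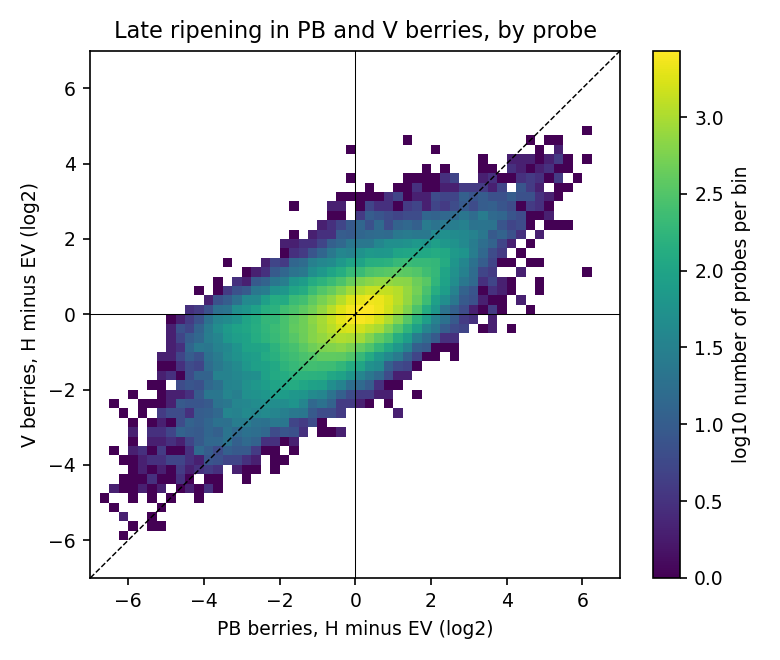
H minus EV difference of each grapevine probe in PB berries (log2, horizontal axis) against that in V berries (log2, vertical axis), with colour for the log10 number of probes per bin and a dashed line of equality. The cloud of probes runs along the diagonal (r = 0.62) but less steeply than the line of equality.

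The V change was smaller than the PB change in the called probes, with a median of 65.0% of it for the higher and 69.7% for the lower ones. Because the probes were called for a large change in PB berries, this ratio is partly fixed by the choice. The test of the difference itself, PB minus V, called 0 of the 117999 grapevine probes in limma. The lowest adjusted p was 0.397, 12657 probes had an unadjusted p below 0.05 (10.7%), and the median SE of the difference was 0.57 on the log2 scale. In simulated data with 50 changed probes at each size and each probe's own spread, this test found 18% of changes of 3 and 30% of changes of 4 on the log2 scale. The number of changed probes in the berries is not known. In simulations of the H minus EV test recovery rose with that number, so these shares may not hold here. The 0 calls of PB minus V do not show that the changes were equal. Without H replicate 3 of the PB berries the PB minus V test called 3551 probes. Over all probes the root mean square H minus EV difference was 1.20 in PB and 0.81 in V berries, with 0.59 and 0.42 from the spread between replicates alone.

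All 4 named probes kept their direction in V berries. VitusP00171937 read 11.58, 12.88 and 11.55 at H and 9.83, 6.44 and 5.37 at EV in V berries, a difference of 4.79. VitusP00100823 read 12.55, 13.00 and 12.24 at H and 11.39, 7.54 and 6.13 at EV, a difference of 4.24. In both, EV replicate 1 of the V berries stood well above the other two. VitusP00041070 read 9.99, 5.93 and 5.53 at H and 12.76, 12.23 and 13.41 at EV (difference -5.65), and VitusP00262347 read 9.40, 5.94 and 6.78 at H and 12.05, 12.23 and 12.72 at EV (difference -4.96). Here H replicate 1 of the V berries stood above the other two.

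In C berries 78.2% of the called probes also had the same sign. With PB probes called without H replicate 3 of the PB berries that share was 50.1%. The 1122 higher probes had a median H minus EV difference of 1.82 in C berries, with the same sign in 990 (88.2%, against 54.5% of all probes) and an unadjusted p below 0.05 in the same direction in 716 (63.8%, against 12.6%). The 1393 lower probes had a median of -0.89, with the same sign in 976 (70.1%, against 45.5%) and an unadjusted p below 0.05 in 500 (35.9%, against 11.8%). The median over all probes in C berries was 0.12. Limma called 0 probes between H and EV in C berries, with a lowest adjusted p of 0.0257 and 28773 at an unadjusted p below 0.05 (24.4%). Across grapevine probes the PB and C differences correlated at r = 0.07, and across random-sequence probes at r = -0.10. The random-probe level moved in opposite directions in these berries, being 0.38 higher at H in PB and lower at H in C.

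The level of the falling probes in C berries is given as a description, since the choice of probes that were high at EV and low at H in PB berries favours a lower reading in C berries at EV and a higher one at H. Their median was 9.87, 10.10 and 10.07 in the PB arrays at EV, against 7.33, 9.44 and 8.22 in the C arrays at EV. At H it was 6.30, 6.31 and 6.85 in PB berries and 7.84, 6.79 and 7.23 in C berries. VitusP00041070 read 5.49, 11.44 and 8.42 and VitusP00262347 6.38, 11.65 and 9.91 in the 3 C arrays at EV, so that 1 of the 3 was already at its harvest level and another was still bright. Both rising probes were dim in all 3 C arrays at EV. VitusP00171937 read 11.39 to 12.26 at H and 5.86 to 6.77 at EV in C berries, and VitusP00100823 read 12.11 to 12.69 at H and 5.49 to 7.05 at EV.

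**Figure D5:**
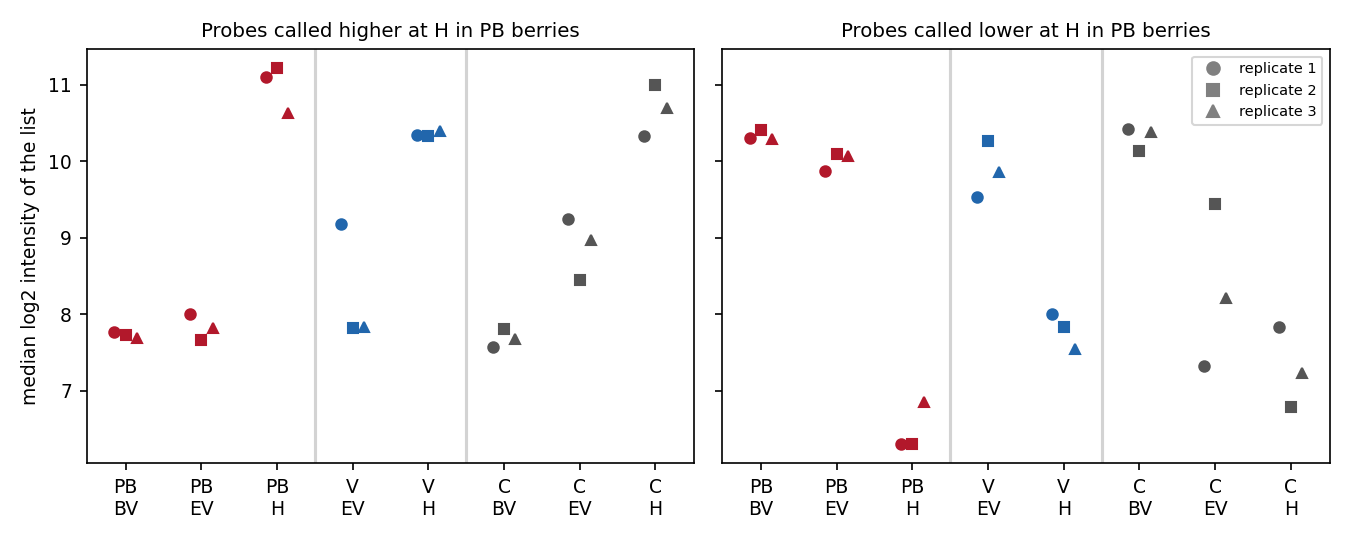
Median log2 intensity (vertical axis) of the 1122 probes called higher (left panel) and the 1393 called lower at H (right panel) in each array, by treatment and stage, with a symbol for each replicate number. In PB berries the BV and EV arrays lie together, at 7.67 to 8.01 in the left panel, and the H arrays apart, at 10.64 to 11.22; EV replicate 1 of the V berries (9.18) and all C arrays at EV lie between the stages.

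The test of the difference between the PB and the C change called 2 probes (0.00169%), both with a positive difference, and 29877 had an unadjusted p below 0.05 (25.3%). At an adjusted p below 0.05 it called 2320 (1.97%). The first read 8.31, 8.85 and 8.09 at H and 5.45, 5.89 and 5.24 at EV in PB berries, and 6.77, 6.47 and 5.74 at H and 10.25, 9.02 and 10.16 at EV in C berries. The second read 8.91, 9.30 and 8.46 at H and 5.91, 6.30 and 6.34 at EV in PB berries, and 7.69, 7.90 and 7.20 at H and 10.22, 9.78 and 10.32 at EV in C berries. Both were thus higher at H in PB and lower at H in C berries, without overlap between the stages, and the measured changes differed by 6.38 ± 0.62 and 5.22 ± 0.51 (SE) on the log2 scale, each with an adjusted p of 0.0198. The first probe lay below the random-probe level in all 3 PB arrays at EV and in 1 C array at H, so that its difference is bounded at 5.79 with these values raised to that level. This count was as dependent on single arrays as the main one, with 11851 probes called without EV replicate 2 of the C berries and 0 without EV replicate 1 or EV replicate 3 of the C berries.

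To place whole arrays, an axis was drawn from V berries at EV (0%) to V berries at H (100%) over the 8884 probes (7.53%) that differed between these at an adjusted p below 0.05 and 2-fold. No PB array entered it. PB berries at H lay at 103, 107 and 93.5% of this axis, against 15.1, 2.39 and -2.85% at EV. The stages did not overlap, and the means were 101 ± 6.77% at H and 4.87 ± 9.21% at EV (SD, n = 3 each), a difference of 96.2 percentage points (two-sided exact permutation p = 0.1, the smallest possible). BV arrays of PB berries lay at -7.88 ± 4.66%. The axis from C at EV to C at H, over 3708 probes (3.14%), placed PB berries at 83.3 ± 9.12% at H and 51.2 ± 4.63% at EV, a difference of 32.1 (exact permutation p = 0.1), and at 43.5 ± 3.85% at BV. BV precedes EV, so a position on the C axis cannot be read as progress from EV to H. The C arrays at EV had the highest mean random-probe level of any group (6.73), and its part in these positions was not tested.

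The reverse axis, from PB berries at EV to PB berries at H over the 2515 called probes, placed V berries at 71.0, 73.4 and 77.7% at H, against 27.0, -2.87 and 3.26% at EV. EV replicate 1 of the V berries lay between the others and the H arrays. C berries lay at 73.1, 96.6 and 83.2% at H, against 56.1, 25.9 and 42.7% at EV. The C arrays at EV were thus spread over the axis but did not overlap with the C arrays at H. The difference between H and EV was 64.9 percentage points in V and 42.8 in C berries (exact permutation p = 0.1 each).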

How the data were processed

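RNA from pooled berries was hybridised to 1-colour (Cy3) NimbleGen arrays. The authors deposited a single table of linear probe intensities (Cy3 fluorescence), normalized across arrays together with the random-sequence probes; the scanning, background and normalization software is not given in the sources used here. Of 139363 rows, 2273 without values were not used. Intensities were put on the log2 scale without further normalization or filter. Groups and replicates were taken from the labels. The 6 PB arrays at H and EV were fitted alone with limma (R 4.3.3, limma 3.58.1, lmFit and eBayes), leaving 4 residual degrees of freedom. Interactions were fitted on 12 arrays. The highest correlation between 2 arrays was 0.979 and none held identical values, so each counted as a replicate. Their small number limits the precision. P-values of whole-array measures came from exact permutation tests. SAM, which the study ran in pairs between treatments and over all stages within a treatment, was run here as a comparison of H with EV, with all 20 assignments of the 6 arrays and a false discovery rate of 2%. Named probes were the 2 largest increases and the 2 largest decreases among called probes with groups that did not overlap and bright values above the random-probe level. The comparison, thresholds and lists were chosen with earlier results of these data known. Alternatives covered scaling, filters, the random-probe level, arrays in the fit, weights, moderation, thresholds, SAM and leaving out each array. The axes and their alternatives were added after seeing the data. The scripts were tested on simulated data, where recovery depended on the number of changed probes and on the variances used. With 50 changed probes at each size and each probe's own spread, limma found 0% of changes of 4 on the log2 scale between H and EV. With 6000 at each size and moderated variances, it found 72.1% of changes of 2 and 98.7% of changes of 4. Gene lists and cell type markers were not analysed for lack of a gene per probe.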

Additional observations from a re-analysis of the deposited data

Results flagged for a closer look

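The change between EV and H differed between PB and C berries for 2 of 117999 grapevine probes in the test of the difference itself, which is why they are set apart here. The calls were lost with MAD scaling, the negative-control filter, either random-probe covariate, the replicate block, trend and robust moderation and with most single arrays left out. Both were higher at H in PB berries, with measured differences of 2.89 and 2.70 on the log2 scale, and lower at H in C berries, with -3.48 and -2.51. The first lay below the random-probe level in all 3 PB arrays at EV, and its PB difference with these values raised to that level was 2.47. In V berries their changes were 1.90 and 2.15. The C arrays at EV, on which the direction in C berries rests, had random-probe levels of 7.15, 6.31 and 6.73, the highest mean of any group (6.73), and carry the labels of another experiment, and the part of either in this difference was not tested.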

How the results depend on the processing

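The 2515 probes called between H and EV in PB berries kept their sign and an unadjusted p below 0.05 in every limma fit in which they were tested. They were chosen on these same arrays for a small p, so this is largely set by the choice. The count did not hold. It was within 1.5 times of 2515 with MAD scaling, quantile normalization, both filters on low values and other fold minimums. It was 0 with the mean or the median random-probe level as a covariate, 13994 with all 24 arrays, 41985 with array weights, 6674 with trend and robust moderation, 9956 at an adjusted p below 0.05 and 18317 with SAM, and lay between 0 and 16285 with 1 array left out. Array weights did not converge in the fits that held C arrays. The cause of these shifts was not tested. The replicate number as a block gave 0 calls in limma, where the lowest adjusted p was 0.0348 and 30639 probes reached an unadjusted p below 0.05. Deviations of same-numbered H and EV arrays correlated at 0.02, -0.14 and -0.04. The labels do not say whether a replicate number marks a block, and these correlations cannot decide it. Among the named probes, 28 of 40 values with all arrays and 8 of 24 with 1 left out passed the thresholds, with a highest adjusted p of 0.0640. There was no reversal, which their choice by size on these arrays favours.

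For PB minus V (0 calls), the count was 1 with either covariate, 21661 with weights and 0 to 3551 with 1 array left out, where 3551 came without PB H replicate 3. For PB minus C (2 calls), it was 0 with MAD scaling, the negative-control filter, either covariate, the replicate block and trend and robust moderation, 11097 with all 24 arrays, 44289 with weights, 2320 at an adjusted p below 0.05, and 0 to 11851 with 1 array left out (2520 without PB H replicate 3, 1 without C H replicate 2). Of PB-called probes, 0 were called the same way in V berries, but 275 without the lowest 25% of probes, 2675 with all 24 arrays, 7858 with weights, 2203 with trend and robust moderation, 3797 at an adjusted p below 0.05, 2475 when only the sign was asked, and 0 to 525 with 1 array left out (525 without V H replicate 1, 392 without V EV replicate 1). In C berries 0 were called the same way, but 3754 with all 24 arrays, 9115 with weights, 667 with trend and robust moderation, 1110 at an adjusted p below 0.05, 1966 by sign, and 0 to 526 with 1 array left out (526 without C EV replicate 2). The share with the same sign ranged from 78.0% (with array weights) to 99.2% in V and from 50.1% (without PB H replicate 3) to 84.1% in C berries. No random-sequence probe was called in any fit run. The share of called probes with BV on the H side of EV, 43.3%, was 47.6% with all 24 arrays and 47.8% at an adjusted p below 0.05. The number of probes above background at 1 stage only, 21974, ran from 20112 to 33364 with 1 array left out, the highest without PB H replicate 3. The distance of 96.2 on the V axis was 32.1 on the C axis and 76.0 to 99.3 with 1 V array left out (76.0 without V H replicate 1), and no probe passed for an axis without V EV replicate 2, V EV replicate 3 or V H replicate 2. The depth of the measurement was limited by background, with 23220 probes above it at neither stage.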
